A study of Mus musculus with 8 samples.

Results

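The 9 genes described here encode transcription factors that are known for promoting or timing myelination: Nkx2-2, Nkx6-2, Myrf, Zeb2, St18, Zfp488, Zfp24, Zfp536 and Yy1. They were picked by name for that role, with earlier results of these data known, and all 9 were found among the 24346 genes of the deposited table, 8 under the current symbol and Zfp24 under its older symbol Zfp191. All 9 averaged 1 FPKM or more over the 8 libraries (FPKM is the number of fragments scaled to the length of the transcript and to the size of the library) and so belonged to the 12328 genes that were tested.

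The RNA-seq was done on cells that the study names immature oligodendrocytes (iOLs) by their time in differentiation medium. Med23-/- iOLs came from mice with floxed Med23 and the Olig1-Cre allele, which removes Med23, a subunit of the Mediator coactivator complex, in cells of the oligodendrocyte lineage; the study's controls were littermates without the Cre, and the labels call those libraries wild type (Med23+/+). Oligodendrocyte precursor cells (OPCs) of both genotypes were panned from the brains of mice at postnatal day 7 with an antibody to PDGFRα, expanded in growth factors, and treated for 1 day with 15 nM T3 (thyroid hormone) and 10 ng/mL CNTF, a cytokine. In the study's staining at that time, a minority of control cells and almost no Med23-/- cells had become immature oligodendrocytes. The genotypes are thus compared at the same time point, which need not be the same stage. Each genotype had 4 libraries. The labels do not say that these were separate cultures or animals, so the p-values measure only the spread between these libraries, which may be technical.

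An oligodendrocyte matures in steps that are driven by transcription factors acting in sequence. Olig2 and Sox10 define the lineage, Nkx2-2 and zinc-finger factors such as Zfp488 and Zeb2 end the precursor state, largely by repression, and Myrf then switches on the genes of the myelin sheath. Yy1, Zfp24, St18, Nkx6-2 and Zfp536 are further factors of the lineage, with roles that are described beside their values.

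Med23 itself was lower in every Med23-/- library, at 12.5 FPKM ± 0.225 (SD, n = 4) in Med23+/+ and 8.26 ± 0.247 (n = 4) in Med23-/- iOLs, so 65.8% of its gene-level signal remained. This value covers the whole transcript and does not measure the floxed exons alone. Between 15941 and 16469 genes were above 0 in each library, and the depth in reads is unknown because only FPKM values were given. Lineage markers were high in both genotypes. The 8 listed, of OPCs and of the stages just after, summed to 2049 to 2323 FPKM in Med23+/+ and 1435 to 1786 in Med23-/- libraries. The 4 called lower (Gpr17, Neu4, Bcas1 and Enpp6) mark committed precursors and newly formed oligodendrocytes. Of the OPC markers, 2 were called higher (Pdgfra and Cspg4) and 2 were not called (Ptprz1 and Lhfpl3). All 4 endothelial markers and 7 of 8 microglia markers were under 1 FPKM in every library. The sum of 8 neuron markers moved with genotype, from 42.8 to 70.4 FPKM in Med23+/+ libraries to 89.7 to 189 in Med23-/- libraries, and was highest in Med23-/- replicates 3 and 4. Of these neuron markers 7 were tested and 6 were higher in Med23-/- iOLs. Among 7 astrocyte markers 6 were tested, with 2 lower and 1 higher, and of 6 fibroblast and pericyte markers 2 were tested and neither was called. Over all tested genes, 14.1% were called lower and 15.9% were called higher. The share of astrocyte markers called higher was near that background. These are bulk samples, so fewer cells of a type and less RNA per cell cannot be told apart.

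Promoter sequence was read for the members because the study concerns Sp1, a factor that binds GC boxes. RefSeq promoter windows of assembly GRCm38.p6 were matched to 6 members (Nkx2-2, Nkx6-2, Zfp488, Zfp536, Zeb2 and Yy1), with 9 windows in all since Zeb2 had 4 annotated starts. No entry was found for Myrf and St18. No window of Zfp24 was read, whether or not an entry exists, so nothing is said here of its promoter. The stretches of 4 members upstream of the start that hold no annotated exon are shown, to set Nkx2-2, Nkx6-2 and Zeb2, which were lower in Med23-/- iOLs, beside Zfp488, which was not called. Each is written 5′ to 3′ on the strand of the gene, in lower case, with the GC box core GGGCGG or its reverse complement CCGCCC in capitals. The stretch of Nkx2-2 is chr2:147186456-147186652 and that of Nkx6-2 is chr7:139582798-139583047. That of Zfp488 is chr14:33978765-33979014 and that of the first Zeb2 start is chr2:45117443-45117692, all on the minus strand. The Nkx2-2 stretch lies upstream of its RefSeq start but inside the longer span of the gene in the GENCODE annotation. It is therefore not upstream of the whole gene.
Nkx2-2: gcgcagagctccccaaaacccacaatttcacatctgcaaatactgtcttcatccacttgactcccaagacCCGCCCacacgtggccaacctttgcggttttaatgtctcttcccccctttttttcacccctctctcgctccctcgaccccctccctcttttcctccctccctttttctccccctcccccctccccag
Nkx6-2: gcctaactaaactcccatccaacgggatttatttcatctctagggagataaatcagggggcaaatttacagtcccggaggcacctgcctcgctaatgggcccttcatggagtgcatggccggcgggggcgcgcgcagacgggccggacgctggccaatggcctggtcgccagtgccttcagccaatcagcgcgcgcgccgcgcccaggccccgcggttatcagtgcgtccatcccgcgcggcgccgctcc
Zfp488: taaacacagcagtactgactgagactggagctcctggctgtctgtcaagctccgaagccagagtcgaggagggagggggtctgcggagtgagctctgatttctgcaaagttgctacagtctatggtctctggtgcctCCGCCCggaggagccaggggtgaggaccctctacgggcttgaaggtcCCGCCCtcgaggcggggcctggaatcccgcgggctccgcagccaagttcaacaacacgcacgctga
Zeb2: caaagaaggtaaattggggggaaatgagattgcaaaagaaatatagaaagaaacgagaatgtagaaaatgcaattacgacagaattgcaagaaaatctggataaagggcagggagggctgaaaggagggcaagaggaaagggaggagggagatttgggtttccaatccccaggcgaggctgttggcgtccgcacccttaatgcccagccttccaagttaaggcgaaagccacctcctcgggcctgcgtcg

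The 250 bases before the start held 1 GC box core in Nkx2-2, 2 in Zfp488, 6 in Yy1 and 0 in Nkx6-2 and Zfp536. Of the Zeb2 starts, the first held 0 and each of the other 3 held 1. The windows of starts 2 and 3 overlap and hold the same core. Annotated exons cover all 250 bases of the windows of Yy1 and of Zeb2 starts 2 and 3, 210 bases of that of Zfp536, 191 of that of the fourth Zeb2 start and 53 of that of Nkx2-2. For comparison, GGGCGG was present on either strand in 32.7% of all 32851 RefSeq mouse windows of that length. The longer box GGGGCGGGG, which contains GGGCGG, was in 10.4% of them and TATAAA was in 12.4%. Among the 9 windows of the members, the longer box was found in that of the fourth Zeb2 start alone, and TATAAA in 0. The windows of the members were 49.6% to 81.2% G and C against a median of 52.4% over all windows.

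Of the 9 factors, 5 were lower in Med23-/- iOLs (Nkx6-2, Nkx2-2, Myrf, Zeb2 and St18), 1 was higher (Zfp536), and 3 did not pass the test (Zfp24, Zfp488 and Yy1). The test was limma on log2(FPKM + 1) over all tested genes with Benjamini-Hochberg adjustment, and a gene was called at an adjusted p under 0.05. By this rule 14.1% of all tested genes were called lower and 15.9% were called higher. Adding a difference of more than 2-fold on the same scale left 4 members lower and 1 higher, against a background of 1.75% lower and 2.98% higher. With a pseudocount of 0.1 FPKM in place of 1, St18 also passed 2-fold (-1.04) and 5 members were lower by this rule. Nkx6-2 and St18 averaged under 1 FPKM in Med23-/- iOLs and passed the filter through their Med23+/+ values. Every Med23-/- library lay below every Med23+/+ library for 5 members, where 15.3% of all tested genes did so, and above for 1 member, where 16.3% did so. The median log2 difference, Med23-/- minus Med23+/+, was -0.65 over the 9 members and -0.01 over all tested genes.

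**Figure D1:**
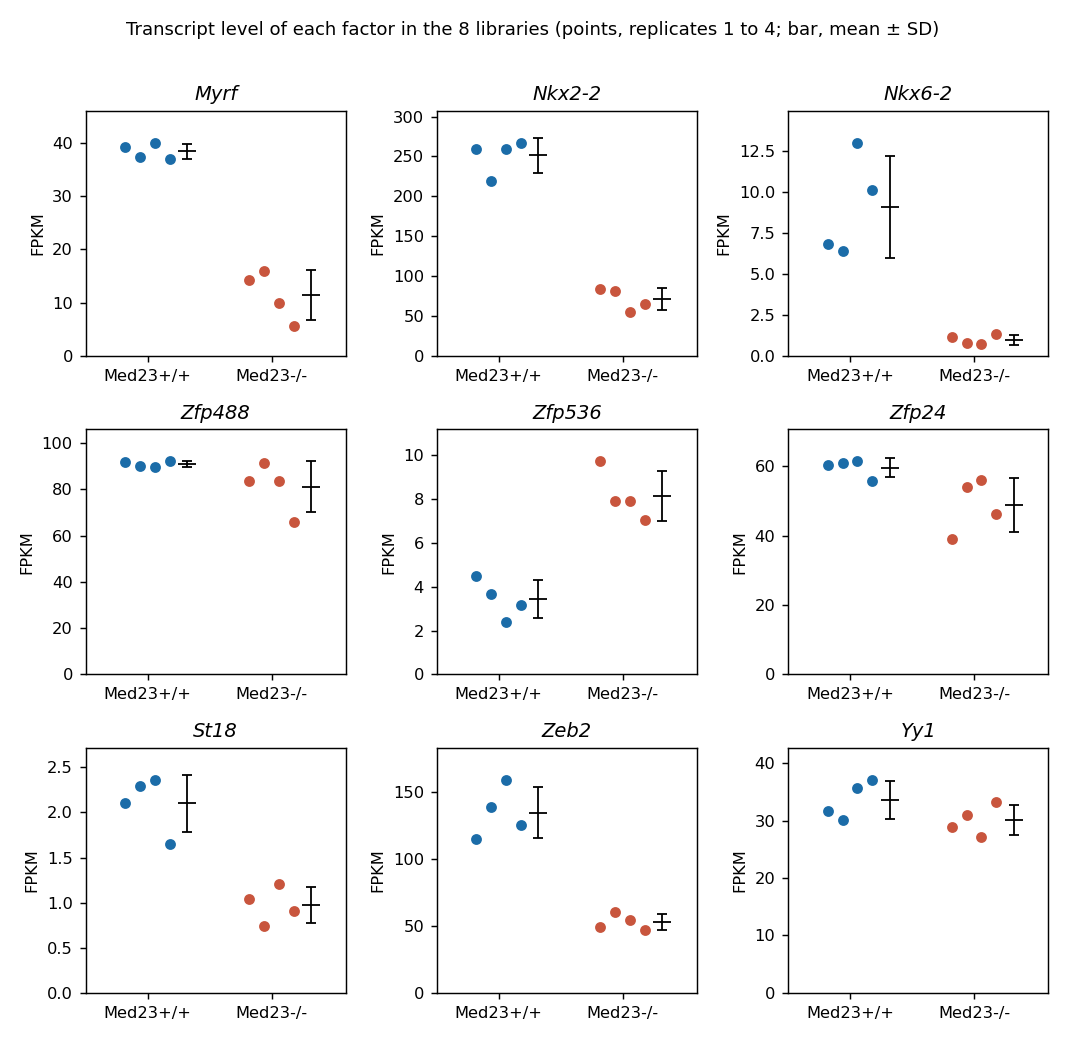
FPKM of each of the 9 factors in the 8 libraries, 1 panel per factor with an axis from 0, with points for replicates 1 to 4 and bars for the mean ± SD of each genotype. The points of Nkx2-2, Nkx6-2, Myrf, Zeb2 and St18 in Med23-/- iOLs all lie below those in Med23+/+ iOLs, those of Zfp536 lie above, and those of Zfp24, Zfp488 and Yy1 overlap.

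Nkx2-2, a homeodomain repressor that shuts down Pdgfra and sets the time of differentiation, spans chr2:147177546-147194243 on the minus strand (GRCm38). Its level was 259.8, 219, 259 and 267 FPKM in the 4 Med23+/+ libraries, whereas it was 83.8, 80.9, 55.3 and 64.9 in the 4 Med23-/- libraries. The groups were far apart, with the lowest Med23+/+ library, replicate 2, still above the highest Med23-/- library. The mean fell from 251 ± 21.7 (SD, n = 4) to 71.2 ± 13.5 FPKM (n = 4), or 28.3% of the Med23+/+ mean. The log2 difference was -1.82 (95% interval -2.12 to -1.52, SE 0.14, limma adjusted p = 2.94e-05). Nkx2-2 was the most abundant member per length in Med23+/+ iOLs, and its rank among all tested genes went from percentile 97.9 to 92.2.

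Nkx6-2, a homeodomain factor that is enriched in myelinating oligodendrocytes, lies at chr7:139579376-139582797 on the minus strand. It was measured at 6.81, 6.39, 13.0 and 10.1 FPKM in Med23+/+ libraries, whereas it was 1.13, 0.789, 0.702 and 1.33 in Med23-/- libraries. Its highest Med23-/- library stood well under its lowest Med23+/+ library. The mean dropped from 9.06 ± 3.09 (n = 4) to 0.986 ± 0.291 FPKM (n = 4), which is 10.9% of the Med23+/+ mean and the deepest reduction among the members. On the log2(FPKM + 1) scale the difference was -2.30 (95% interval -2.76 to -1.84, SE 0.21, adjusted p = 7.57e-05), a scale that understates the change of low genes. In Med23-/- iOLs its level sat at percentile 1.07 of tested genes, down from 39.9.

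Myrf, the membrane-bound factor that cleaves itself and sends its N-terminal part to the nucleus to activate myelin genes, lies at chr19:10208272-10240748 on the minus strand. The Med23+/+ libraries gave 39.3, 37.4, 40.0 and 37.0 FPKM and the Med23-/- libraries gave 14.3, 15.9, 9.86 and 5.66. The Med23+/+ values were tightly grouped and the Med23-/- values were scattered below them, with replicate 4 the lowest. The means were 38.4 ± 1.44 (n = 4) and 11.4 ± 4.62 FPKM (n = 4), so 29.8% of the Med23+/+ mean remained. The log2 difference was -1.75 (95% interval -2.30 to -1.20, SE 0.25, adjusted p = 7.73e-04).

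The spread of Myrf differed in size between the genotypes as a description. The highest library was 1.08 times the lowest in Med23+/+ iOLs and 2.81 times in Med23-/- iOLs, and the coefficient of variation was 3.75% against 40.4%. Replicates 1 and 2 of both genotypes alone gave a log2 difference of -1.29, and replicates 3 and 4 alone gave -2.21. The same split gave -1.52 and -2.12 for Nkx2-2 and -1.19 and -1.46 for Zeb2, whereas St18 (-0.76 and -0.54) and Zfp24 (-0.39 and -0.20) went the other way. The labels name no batch for these numbers. Med23-/- replicates 3 and 4, the lowest for Myrf and Nkx2-2, were also highest in summed neuron markers, at 189 and 154 FPKM against 119 and 89.7 in replicates 1 and 2. Without these 2 libraries the log2 difference was -1.29 for Myrf (adjusted p = 1.52e-04) and -1.59 for Nkx2-2 (adjusted p = 1.52e-04). Med23-/- replicates 1 and 2 were themselves above the Med23+/+ libraries in that sum (42.8 to 70.4 FPKM). Other markers also differed between these Med23-/- libraries. Astrocyte markers summed to 139 and 121 FPKM in replicates 3 and 4 against 96.9 and 87.5 in replicates 1 and 2. Fibroblast and pericyte markers summed to 7.45 and 3.05 FPKM against 17.1 and 11.0. The part of any of these markers was not tested.

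Zeb2, also called Sip1, is a zinc-finger and homeodomain repressor that binds Smads and blocks BMP signals, which hold back differentiation; it lies at chr2:44983632-45117395 on the minus strand. Libraries of Med23+/+ iOLs held 115, 139, 159 and 125 FPKM, and those of Med23-/- iOLs held 49.3, 60.6, 54.4 and 46.9. No Med23-/- library came near the Med23+/+ range. The mean went from 134 ± 19.3 (n = 4) to 52.8 ± 6.09 FPKM (n = 4), or 39.3% of the Med23+/+ mean. The log2 difference was -1.33 (95% interval -1.59 to -1.06, SE 0.12, adjusted p = 7.45e-05).

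St18, a zinc-finger factor of the Myt1 family that is expressed in oligodendrocytes, lies at chr1:6487231-6860940 on the plus strand. It was low throughout, at 2.10, 2.29, 2.36 and 1.65 FPKM in Med23+/+ libraries, compared with 1.04, 0.739, 1.21 and 0.903 in Med23-/- libraries. The groups did not overlap. Its mean was 2.10 ± 0.320 (n = 4) in Med23+/+ and 0.973 ± 0.199 FPKM (n = 4) in Med23-/- iOLs, 46.3% of the former. The log2 difference of log2(FPKM + 1) was -0.65 (95% interval -0.94 to -0.36, SE 0.13, adjusted p = 0.00498), which is less than 2-fold on that scale.

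Zfp488, a zinc-finger corepressor that works with Olig2 to promote differentiation, lies at chr14:33967070-33978764 on the minus strand. The Med23+/+ values were 92.0, 90.2, 89.8 and 92.1 FPKM, and the Med23-/- values were 83.8, 91.6, 83.5 and 65.8. The ranges overlapped through Med23-/- replicate 2, and replicate 4 was the lowest. The means were 91.1 ± 1.21 (n = 4) and 81.2 ± 10.9 FPKM (n = 4), and the log2 difference was -0.17 (95% interval -0.40 to 0.05, SE 0.10, adjusted p = 0.221). The interval leaves out a fall as deep as that of Zeb2 or Myrf.

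Zfp24, a zinc-finger factor that oligodendrocytes need to mature and myelinate, lies at chr18:24009702-24020810 on the minus strand. It had 60.3, 61.0, 61.4 and 55.7 FPKM in Med23+/+ libraries, compared with 39.1, 54.0, 56.0 and 46.3 in Med23-/- libraries. The ranges overlapped only by Med23-/- replicate 3 and Med23+/+ replicate 4. Its mean was 59.6 ± 2.60 (n = 4) against 48.9 ± 7.73 FPKM (n = 4), and the log2 difference of -0.29 (95% interval -0.54 to -0.05, SE 0.11) did not pass after adjustment (adjusted p = 0.0734). Without Med23-/- replicate 3 it was called lower, at -0.36 (adjusted p = 0.0393).

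Yy1, a zinc-finger factor that recruits histone deacetylases to silence inhibitors of differentiation, lies at chr12:108792973-108820148 on the plus strand. Med23+/+ libraries gave 31.6, 30.1, 35.7 and 37.1 FPKM and Med23-/- libraries gave 28.9, 30.9, 27.2 and 33.3. The ranges overlapped. The mean was 33.6 ± 3.30 (n = 4) against 30.1 ± 2.61 FPKM (n = 4), with a log2 difference of -0.16 (95% interval -0.36 to 0.05, SE 0.09, adjusted p = 0.243).

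Zfp536, a zinc-finger factor of the brain that is known to restrain neuronal differentiation and is also found in myelinating glia, lies at chr7:37472135-37773641 on the minus strand. The Med23+/+ libraries gave 4.49, 3.67, 2.41 and 3.17 FPKM, and the Med23-/- libraries gave 9.73, 7.91, 7.90 and 7.04. It was the only member whose every Med23-/- library was above every Med23+/+ library. The mean rose from 3.44 ± 0.874 (n = 4) to 8.14 ± 1.13 FPKM (n = 4), and the log2 difference was 1.06 (95% interval 0.72 to 1.39, SE 0.15, adjusted p = 8.32e-04). The difference was close to the 2-fold line and fell under it without Med23+/+ replicate 3 (0.94), without Med23-/- replicate 1 (0.98) and under quantile normalization (0.95), while the call itself held. Neuron markers rose in the same libraries, from 42.8 to 70.4 FPKM in sum to 89.7 to 189, and their part in the result was not tested. Without Med23-/- replicates 3 and 4, where that sum was highest, the log2 difference of Zfp536 was 1.16 (adjusted p = 0.00470). The Med23-/- libraries left in that fit were also above every Med23+/+ library in the sum, so it is no test of neuron markers.

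**Figure D2:**
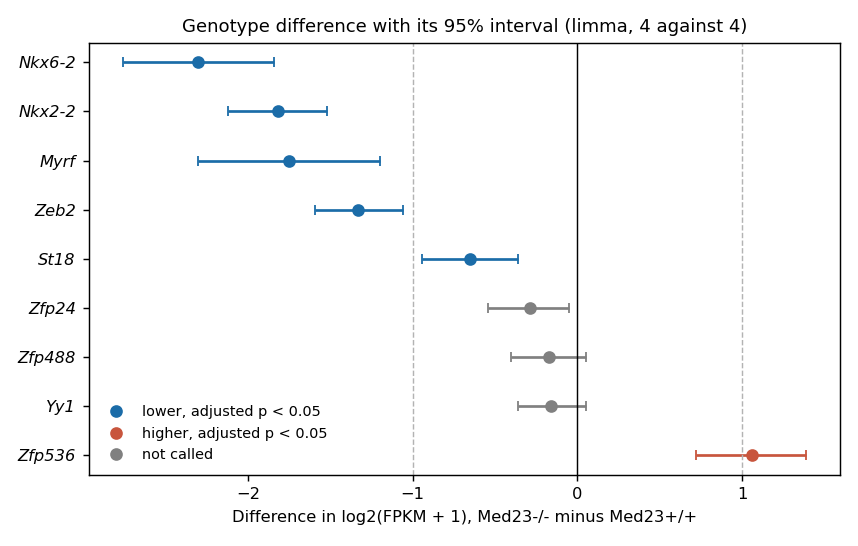
Log2 difference in log2(FPKM + 1), Med23-/- minus Med23+/+, for each of the 9 factors, with bars for the 95% interval of the limma fit, a line at 0, dashed lines at a 2-fold difference, and colours for genes called lower, called higher or not called. Nkx6-2 has the lowest value at -2.30 and Zfp536 the highest at 1.06, and the intervals of Zfp488 and Yy1 cross 0 while that of Zfp24, which is not adjusted, ends just below it.

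Several members share bases with genes on the opposite strand, and the use of strand in the authors' counting is not stated, so reads of a member and such a partner cannot be told apart. Nkx2-2os shares 278 exonic bases with Nkx2-2 and went from 13.4 ± 3.62 (n = 4) to 4.57 ± 2.29 FPKM (n = 4), adjusted p = 0.00607. Zeb2os shares 653 exonic bases with Zeb2 and went from 4.90 ± 1.40 (n = 4) to 2.75 ± 0.476 FPKM (n = 4), adjusted p = 0.0164. Both were called lower, like the member they overlap. Inpp5a, which shares 246 exonic bases with Nkx6-2, had a log2 difference of -0.04 (adjusted p = 0.811).

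The order of the members by level, which FPKM allows because it is per length, differed between the genotypes. Med23+/+ iOLs had, from high to low, Nkx2-2 at 251 FPKM, Zeb2 at 134, Zfp488 at 91.1, Zfp24 at 59.6, Myrf at 38.4, Yy1 at 33.6, Nkx6-2 at 9.06, Zfp536 at 3.44 and St18 at 2.10. Among neighbours in that order, only the ranges of Myrf and Yy1 overlapped. Med23-/- iOLs had Zfp488 at 81.2, Nkx2-2 at 71.2, Zeb2 at 52.8, Zfp24 at 48.9, Yy1 at 30.1, Myrf at 11.4, Zfp536 at 8.14, Nkx6-2 at 0.986 and St18 at 0.973. There the ranges of Zfp488 and Nkx2-2, of Nkx2-2 and Zeb2, of Zeb2 and Zfp24, of Myrf and Zfp536 and of Nkx6-2 and St18 overlapped. Overlapping ranges do not show that neighbours were level, since both were measured in the same libraries. Within Med23-/- libraries the log2 ratio of Nkx2-2 to Zeb2 was 0.02 to 0.75, while that of Myrf to Zfp536 was -0.27 to 0.92.

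Ratios between members within a library were compared as well, as differences in log2(FPKM + 1). Of 36 pairs, the log2 ratio of 25 had no overlap between the genotypes, each with p = 0.0286 in the two-sided exact permutation test, the smallest that 4 against 4 libraries allow, and 0.0411 after adjustment over the 36 pairs. Pairs share members and are not independent. All 16 pairs of a member lower past 2-fold with one lower by less or not called separated, as did every pair with Zfp536. Within the members lower past 2-fold 1 of 6 pairs separated, and within those lower by less or not called 0 of 6 did. The count thus largely follows from the calls of single members and is no separate support for them.

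The ratio of Myrf to Nkx2-2 stood at -2.67 ± 0.12 (log2, n = 4) in Med23+/+ and -2.61 ± 0.47 (n = 4) in Med23-/- iOLs (exact permutation p = 0.857). In contrast, the ratio of Nkx2-2 to Zfp488 went from 1.45 ± 0.12 (n = 4) to -0.20 ± 0.27 (n = 4), a change of -1.65. Nkx2-2 was therefore above Zfp488 in each Med23+/+ library, and below it or level with it in Med23-/- libraries. The ratio of Zfp488 to Yy1 changed by -0.02 (exact permutation p = 0.886).

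**Figure D3:**
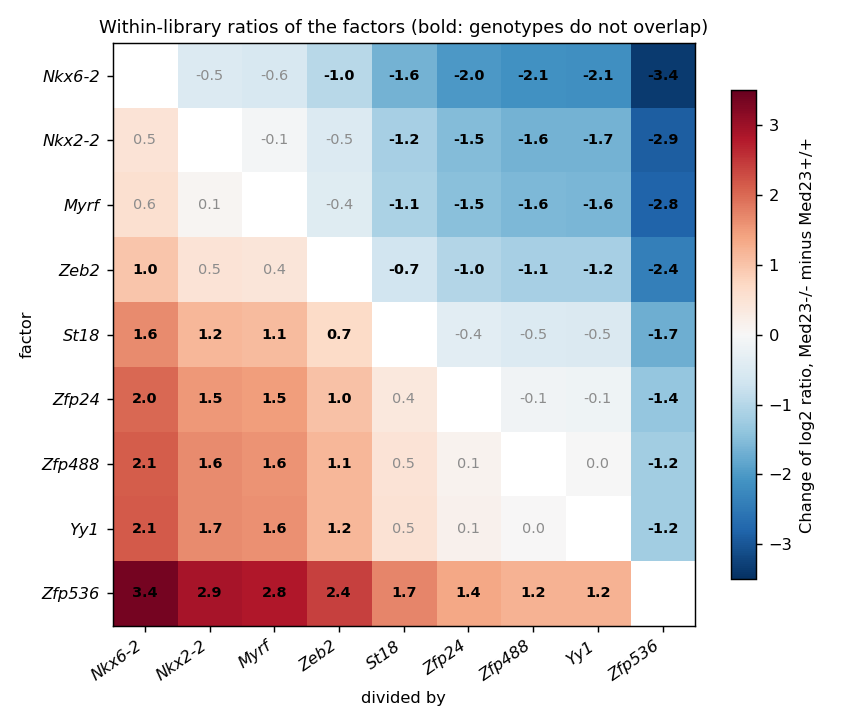
Change of the log2 ratio between each pair of the 9 factors, Med23-/- minus Med23+/+, as a grid with the row gene over the column gene, in log2(FPKM + 1), where bold values are pairs whose ratio separated the genotypes in all 8 libraries. Of 36 pairs 25 are in bold, and the largest change, -3.36, is that of Nkx6-2 to Zfp536.

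None of the tested close relatives of the members was called lower. Of 16 paralogs examined, 9 were under 1 FPKM in every library, among them Myrfl and most of the Nkx relatives. Of 6 that were tested, 0 were called lower (14.1% of all tested genes were) and 4 were called higher (15.9% were); 0 were lower at an unadjusted p under 0.05. The number called higher was 2 without Med23+/+ replicate 1 or without Med23+/+ replicate 2, where the calls of Zeb1 and Myt1 were lost. Zeb1, the paralog of Zeb2, had 39.8, 47.0, 53.8 and 55.3 FPKM in Med23+/+ and 63.2, 60.0, 63.4 and 85.4 in Med23-/- libraries. Its log2 difference was 0.46 (SE 0.14, adjusted p = 0.0288), and the call was lost without Med23+/+ replicate 1 or 2 or without Med23-/- replicate 4. Zeb2 was above Zeb1 in each Med23+/+ library and was below or about level with it in each Med23-/- library.

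The log2 ratio of Zeb2 to Zeb1 went from 1.44 ± 0.19 (n = 4) to -0.35 ± 0.37 (n = 4). Myt1l, a neuronal relative of St18, rose from 2.81 ± 0.413 (n = 4) to 6.66 ± 1.64 FPKM (n = 4), log2 difference 0.99 (adjusted p = 0.00153). The log2 ratio of St18 to Myt1l changed by -1.64. Prdm8, which is related to Zfp488, rose from 1.30 ± 0.776 (n = 4) to 4.02 ± 0.915 FPKM (n = 4), log2 difference 1.16 (adjusted p = 0.00381). Zfp219, the relative of Zfp536, had a log2 difference of 0.14 (adjusted p = 0.424), and Yy2 had 0.01 (adjusted p = 0.973).

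These 6 ratios were chosen after the data had been seen, and 5 of them separated the genotypes (exact permutation p = 0.0286, 0.0343 after adjustment over the 6). The ratio of Yy1 to Yy2 was the exception (adjusted p = 0.343). That p of 0.0286 is the smallest that 4 against 4 libraries allow. Each of the 5 ratios holds a gene whose own groups did not overlap, so their count is no separate support. Neuron markers rose in the same libraries as Myt1l and Zeb1, and their part in these results was not tested.

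**Figure D4:**
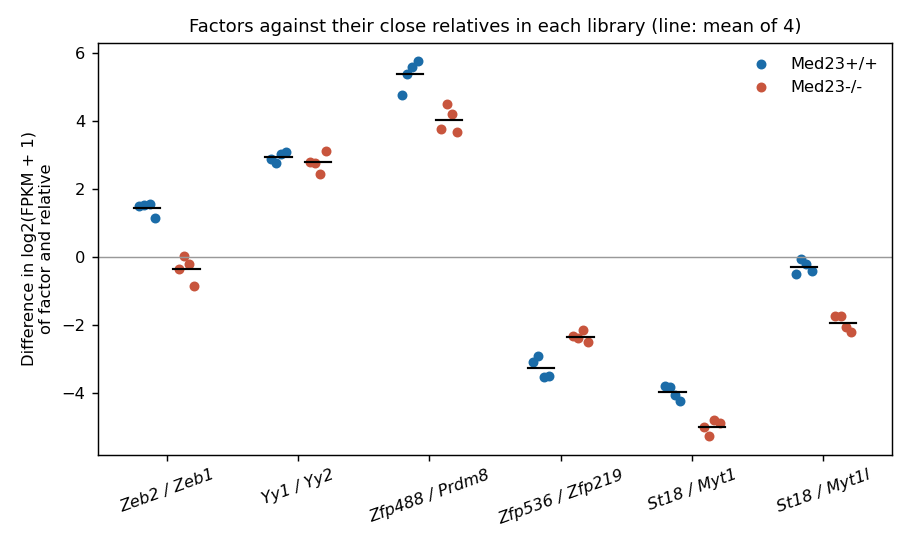
Difference in log2(FPKM + 1) between a member and its relative in each library, for the 6 ratios, with points for libraries, colours for genotypes and a line at the mean of 4. Zeb2 to Zeb1 goes from a mean of 1.44 to -0.35, and Yy1 to Yy2 is the ratio whose groups overlap.

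Among genes that Myrf is known to activate, more were called lower than higher. Of 14 such myelin genes, 11 were tested, 7 were called lower (6 of them by more than 2-fold), against 14.1% of all tested genes, 2 were called higher, against 15.9%, and 2 were not called, and Mobp, Opalin and Ermn were under 1 FPKM in every library. The median log2 difference was -1.23, against -0.01 over all tested genes. Mag, an adhesion protein of the inner myelin layer, went from 14.2 ± 3.70 (n = 4) to 0.860 ± 0.409 FPKM (n = 4), log2 difference -3.03 (adjusted p = 1.86e-05). Cnp and Mog had log2 differences of -1.23 each (adjusted p = 0.00131 and 2.64e-04). Gjb1, a gap junction protein of myelinating cells, was the highest, with 0.311 to 0.816 FPKM over the Med23+/+ libraries and 1.09 to 4.04 over the Med23-/- libraries, log2 difference 1.27 (adjusted p = 0.00584). Cntn2, an adhesion protein of axons and glia that neurons also make and the other gene called higher, had 0.63 (adjusted p = 0.0255). Both averaged under 1 FPKM in Med23+/+ iOLs and entered the test only through their Med23-/- values. In turn Mag and Mog averaged under 1 FPKM in Med23-/- iOLs (0.860 and 0.539) and entered only through their Med23+/+ values. None of these calls, higher or lower, supports anything about the list. The call of Cntn2 was also lost under quantile normalization and without Med23+/+ replicate 2, 3 or 4 or Med23-/- replicate 3 or 4.

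Partners and corepressors of the members went in both directions. All 18 were tested, with 4 lower (Sox10, Hdac1, Hdac2 and Chd4), none of them by more than 2-fold, 3 higher (Tle1, Tle3 and Tmem98) and 11 not called. These counts stand beside 14.1% lower and 15.9% higher over all tested genes, so the share called higher was near the background, and the median log2 difference was 0.06. Tle1, a Groucho corepressor, rose from 4.60 ± 0.712 (n = 4) to 10.6 ± 0.416 FPKM (n = 4), log2 difference 1.06 (adjusted p = 1.03e-04). Tmem98, which binds Myrf and blocks its self-cleavage, rose from 3.71 ± 0.714 (n = 4) to 5.47 ± 0.534 FPKM (n = 4), log2 difference 0.47 (adjusted p = 0.0202). Sox10, the lineage factor that acts with Myrf, was the lowest, with a log2 difference of -0.49 (adjusted p = 0.0203). Olig2 had 0.51 (adjusted p = 0.0621) and Olig1 had -0.02 (adjusted p = 0.951). The number called lower was 0 without Med23+/+ replicate 3, 1 without Med23+/+ replicate 4, 1 without Med23-/- replicate 1, 2 without Med23-/- replicate 2 and 1 under quantile normalization, and the call of Tmem98 was lost without Med23-/- replicate 1, without both Med23-/- replicates 3 and 4 and under quantile normalization. That of Sox10 was lost without Med23+/+ replicate 3, without Med23+/+ replicate 4 and without both Med23-/- replicates 3 and 4.

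Genes that the members are known to restrain were also called lower more often than higher. Of 10 such genes, 9 were tested, 7 were called lower (14.1% of all tested genes were), 1 was called higher (15.9% were) and 1 was not called, with a median log2 difference of -0.74. Id1 and Id3, which block the helix-loop-helix factors of the lineage and are induced by BMP, went from 73.3 ± 13.9 (n = 4) to 11.5 ± 3.60 FPKM (n = 4) and from 148 ± 15.5 (n = 4) to 28.3 ± 7.08 FPKM (n = 4). Their log2 differences were -2.61 (adjusted p = 4.57e-05) and -2.38 (adjusted p = 2.89e-05). Tcf7l2, a Wnt effector that is high in newly formed oligodendrocytes and that Yy1 represses, went from 59.8 ± 2.16 (n = 4) to 22.9 ± 3.92 FPKM (n = 4), log2 difference -1.36 (adjusted p = 4.16e-05).

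Pdgfra, the receptor of the precursor stage that Nkx2-2 represses and that was used to pan the cells, was the 1 gene called higher. It rose from 121 ± 17.2 (n = 4) to 334 ± 9.59 FPKM (n = 4), log2 difference 1.47 (adjusted p = 2.33e-05). Around Zeb2, 5 of 6 Smad genes of the BMP pathway were tested, 3 were called lower (14.1% of all tested genes were) and 0 were called higher (15.9% were), and 0 were higher at an unadjusted p under 0.05. Smad9 was the lowest of those tested, with a log2 difference of -0.95 (adjusted p = 3.36e-04). Its mean was 0.810 FPKM in Med23-/- iOLs, so it passed the filter through its Med23+/+ values. Smad6 averaged too little to be tested, and went from 0.898 ± 0.284 (n = 4) to 0.0463 ± 0.0419 FPKM (n = 4) without overlap. Smad7, the inhibitory Smad that Zeb2 induces, had -0.47 (adjusted p = 0.0278), a call that was lost when any library other than Med23+/+ replicate 2 or Med23-/- replicate 4 was left out. Smad4 had the highest value, 0.05 (adjusted p = 0.636).

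**Figure D5:**
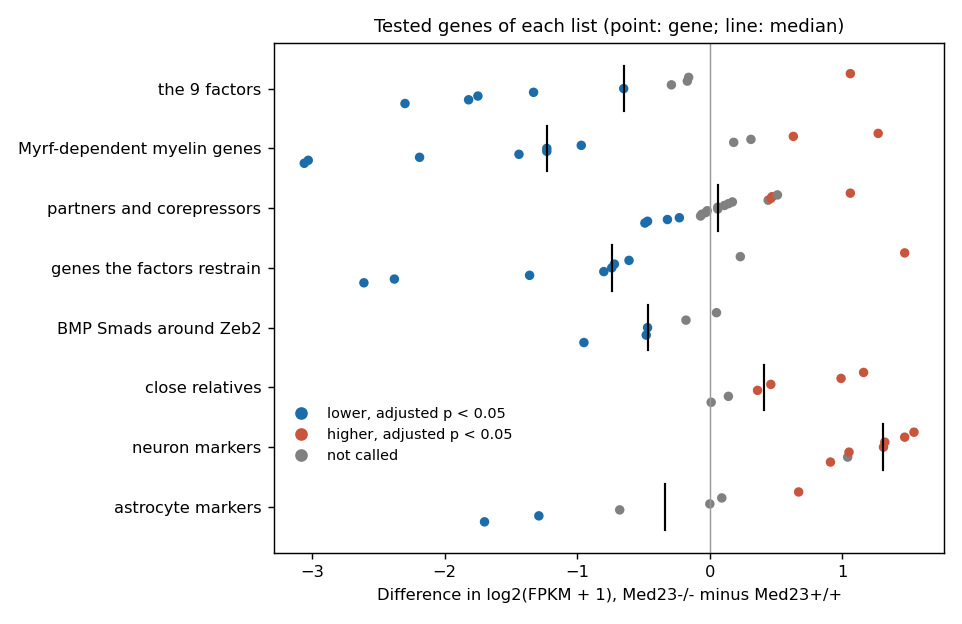
Log2 difference, Med23-/- minus Med23+/+, of every tested gene in each gene list, with 1 point per gene, coloured by whether it was called lower, called higher or not called, and a line at the median of the list. The medians are -0.65 for the 9 factors, -1.23 for the Myrf-dependent myelin genes, 0.06 for partners and corepressors, -0.74 for genes the members restrain and 1.31 for neuron markers.

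The genes whose pattern over the 8 libraries was most like that of Myrf, Nkx2-2 and Zeb2 were searched among 9434 genes that averaged 5 FPKM or more. Likeness was the root mean square difference of centred log2(FPKM + 1), so it counts the genotype difference and the scatter within each genotype together. Rasgef1b was closest to Myrf (0.055), followed by Fa2h (0.095) and Amz1 (0.140). Rasgef1b went from 44.7 to 14.0 FPKM and Fa2h from 45.0 to 13.2. Nkx2-2 had no neighbour as near, with Sept5 at 0.193, Aatk at 0.205 and Pacs2 at 0.213. Pld1 (0.080), Elf1 (0.089) and Map4k5 (0.098) were the closest to Zeb2. These distances are descriptions with no test.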

How the data were processed

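RNA-seq of 4 Med23+/+ and 4 Med23-/- iOL libraries was used, grouped by the labels. Per the study's methods and the submitters' processing notes, the authors used Cutadapt for trimming, TopHat2 for alignment to mm10 and Cuffdiff for quantification, and deposited FPKM values per library; versions, annotation and library scaling are not given in the sources used here. Pooled values and the authors' own fold changes, statistics and p-values in the same table were not used. The depth of each library is unknown, and 4 libraries per genotype limit the precision.

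From the FPKM values, limma 3.58.1 (R 4.3.3, with a mean-variance trend) was run on log2(FPKM + 1) for genes that averaged 1 FPKM or more, with Benjamini-Hochberg adjustment over all 12328. Single ratios were compared by two-sided exact permutation tests. The fit was tested on simulated data. Gene positions came from GENCODE vM21 (GRCm38). The members and lists were chosen with earlier results of these data known. Named genes were every member, the lowest and highest gene of each list other than cell markers with up to 4 more by role, and 3 genes closest in pattern to Myrf, Nkx2-2 and Zeb2. The values of 1 list gene that this rule names are not reported here. Alternatives were another pseudocount (0.1 FPKM), other filters, 2 other scalings, no trend, a replicate block and each library left out.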

Additional observations from a re-analysis of the deposited data

Results flagged for a closer look

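Nkx2-2 in Med23+/+ replicate 2, at 219 FPKM, stood apart from the other 3 Med23+/+ libraries, which were at 259 to 267. Its gap to the nearest library was 0.831 of the range of the group, just above Dixon's 95% critical value for 4 samples. Of 18 groups of 4 libraries examined over the 9 members, 1 was picked out this way, and chance picks out about 1 in 20 groups. Without that library the log2 difference of Nkx2-2 was -1.88 (limma adjusted p = 1.61e-04), within its range of -1.90 to -1.71 over the 8 fits that leave out 1 library.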

How the results depend on the processing

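Of 152 refits of single members, 151 kept the direction and the side of the threshold. The exception was Zfp24, whose log2 difference ranged from -0.36 to -0.19 when 1 library was left out and which was called lower without Med23-/- replicate 3. The number of members called higher by more than 2-fold was 0 under quantile normalization and 0 to 1 when 1 library was left out. With only genes of at least 5 FPKM tested, 1281 genes were called higher in place of 1957, with fewer genes tested, and St18 had no value. Replicate numbers did not pair the libraries 1 to 1. Correlations of deviations for the same number were 0.13, -0.10, -0.03 and 0.16, and not every library was closest to its own number. Med23+/+ replicate 1 had 0.13 and 0.16 with Med23-/- replicates 1 and 2, but -0.14 and -0.13 with 3 and 4. Med23+/+ replicate 4 had -0.18 and -0.14 with the former and 0.14 and 0.16 with the latter. Med23+/+ replicates 2 and 3 showed no such split. A replicate block gave 1835 genes lower and 2085 higher with the same 5 and 1 members. Leaving out both Med23-/- libraries highest in neuron markers, an alternative chosen after seeing the data, gave 1366 lower and 1347 higher and again 5 and 1 members. Taking replicates 1 and 2 against 3 and 4 as a covariate, also chosen after seeing the data, gave 1849 and 2094. Depth is unknown, so levels near 1 FPKM, such as Nkx6-2 and St18 in Med23-/- iOLs, carry a counting error that could not be given.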
